A study of Phaseolus vulgaris with 6 samples.

Results

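TCP proteins and growth-regulating factors (GRFs) are plant transcription factor families that set how long cells keep dividing in young leaves, stems and flowers, and 35 of the 27012 genes measured in apical stems of common bean (Phaseolus vulgaris) carried a description of these families. The members were taken by words in the gene description of the deposited table: "growth-regulating factor", "GRF1-interacting" or the whole word "TCP", leaving out chaperonins. There were 21 TCP genes, 11 GRF genes and 3 GRF1-interacting factors (GIFs). RNA sequencing compared the mutant nts with the wild type A18, each with 3 samples from the top of the stem, taken at first flowering, once mutant tips looked different. All plants grew in pots at 25 °C with 14 h of light and 10 h of darkness. The labels give neither the gene altered in nts nor the origin of the line, so no targeted gene could be checked. They do not say whether the samples of a genotype were separate plants, so p-values cover just the spread among the 3 libraries of each genotype, which may be technical.

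In Arabidopsis, class I TCP proteins such as TCP14 and TCP20 are linked to cell division and elongation. Class II proteins of the CINCINNATA type, such as TCP4, end cell division in leaves and are cut back by microRNA miR319. A further class II branch, named after TEOSINTE BRANCHED 1 of maize and CYCLOIDEA of snapdragon, restrains side shoots or shapes flower symmetry. GRF proteins bind DNA together with GIF co-activators, which bring in SWI/SNF chromatin remodellers, and in Arabidopsis the pair promotes cell division in leaves while miR396 lowers most GRF transcripts. The microRNAs were not measured here.

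Total counts ran from 46361548 to 61113606 in nts and from 40728394 to 62695701 in A18, and nts replicate 3 and A18 replicate 2 were the shallowest libraries of their genotype. Over the 21126 tested genes, on log2(CPM + 1), these libraries also correlated best with the other genotype (mean Pearson r 0.901 and 0.903, against 0.857 to 0.868 for the other libraries). Values without them are given where they matter, and since closeness to the other genotype chose them, leaving them out favours a difference. As a check of the tissue, 46 genes named for shoot meristem regulators (KNOTTED-like, WUSCHEL-related and CLAVATA3-related genes) summed to between 716 and 1184 FPKM in nts and between 1054 and 1191 FPKM in A18, with 17 of the 46 at 0 in every library. Of the 27 tested, 1 was higher and 9 were lower in nts at an unadjusted p under 0.05 (3.70% and 33.3%, against 8.39% and 9.58% of all tested genes). For 10 all nts libraries lay below all A18 libraries (37.0%, against 14.3%), and for 3 all lay above (11.1%, against 10.0%). The median log2 change of the 27 was 0.013, and 14 of them were above 0 (51.9%, against 50.2%). FPKM is the level of a transcript per length and per library size. Secondary wall genes, which mark xylem and fibres, summed to between 476 and 2437 FPKM over 29 genes in nts and between 5790 and 9708 FPKM in A18. Of the 28 tested, 21 were lower at the study's thresholds given below (75.0%, against 3.37% of all tested genes), 1 was called by edgeR, and the median log2 change was -6.13. Photosynthetic leaf genes summed to between 13917 and 16890 FPKM over 20 genes in nts and between 9341 and 18489 FPKM in A18, and 16 of these 20 had an unadjusted p under 0.05, all with higher fitted values in nts (80.0%, against 8.39%). Genes named for floral and other MADS-box factors summed to between 576 and 862 FPKM in nts and between 711 and 920 FPKM in A18, with 31 of the 71 at 0 in every library. Of the 26 tested, 2 were higher and 5 lower in nts at an unadjusted p under 0.05 (7.69% and 19.2%, against 8.39% and 9.58%). Their median log2 change was -0.28. The part of such differences in cell make-up in the results on TCP and GRF genes was not tested, and in bulk tissue fewer cells of a type and less RNA per cell cannot be told apart.

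Setting nts against A18 addresses what differs in the transcripts of the mutant stem tip. No member passed the test over all genes. By fitted value the 3 TCP4 genes were higher in nts, TCP20 was lower, and GRF genes lay on both sides. Of the 30 members with enough counts to be tested, 0 had an adjusted p under 0.05 in edgeR's quasi-likelihood test, where 0.0947% of the 21126 tested genes did (0.0331% higher and 0.0615% lower). An unadjusted p under 0.05 was found for 7 members, 5 higher and 2 lower in nts, against 8.39% and 9.58% of all tested genes. DESeq2 called 5 members, a rate to be read against 11.3% of all genes in that fit, and limma voom with sample quality weights called 6, against 24.1%. Without A18 replicate 2 and nts replicate 3 together edgeR called 5, against 19.9%, and without A18 replicate 2 alone it called 1, against 4.38%. At the study's own thresholds (log2 change 2 or more, or -2 or less, with an unadjusted p no higher than 0.05) 1 member was higher and 1 lower, where 2.06% and 3.37% of tested genes were. A log2 change above 0 was found for 13 of 18 tested TCP genes and 6 of 10 tested GRF genes, and for 50.2% of all tested genes. The median log2 change was 0.42 over 18 tested TCP genes and 0.10 over 10 tested GRF genes, beside 0.0022 over all tested genes. The genotypes did not overlap for 5 of the 30 members, and for 24.3% of all tested genes.

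**Figure D1:**
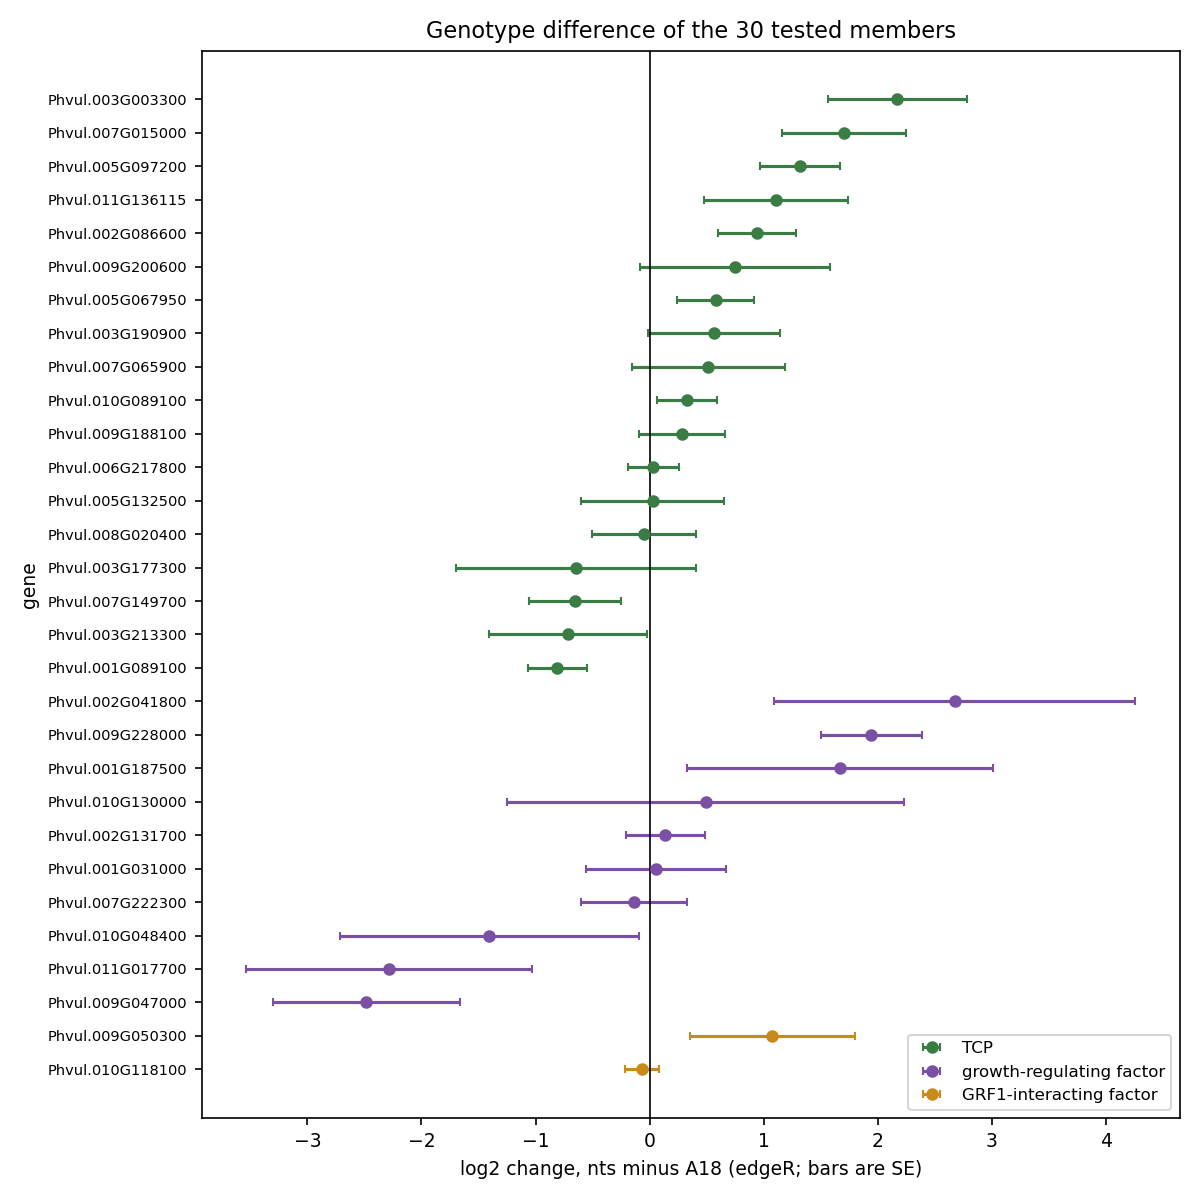
The log2 change (nts minus A18, horizontal axis) is drawn for each of the 30 tested members (vertical axis), with bars of 1 SE, by family. The TCP genes run from -0.81 to 2.17 with 13 of 18 above 0, and the GRF genes spread from -2.48 to 2.68.

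The most abundant TCP transcript in A18 was TCP20 (Phvul.001G089100, chromosome 1, 14226683 to 14227621), whose Arabidopsis counterpart binds promoters of cell cycle and ribosomal protein genes. It had 47.4, 34.4 and 57.5 FPKM in nts replicates 1, 2 and 3, against 97.6, 65.0 and 99.0 FPKM in A18. All 3 nts libraries lay below all 3 A18 libraries. The log2 change was -0.81 ± 0.26 SE (edgeR adjusted p = 0.181, n = 3 per genotype). DESeq2 gave an adjusted p of 0.0564, and over all alternatives of this gene the adjusted p ran from 0.0162 to 0.452, with 2 of them calling it.

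By mean FPKM, the most abundant TCP transcript in nts, and the second in A18, was Phvul.002G086600 (chromosome 2, 14133875 to 14135137). It is described as a TCP family transcription factor and carries GO terms for cell proliferation and for the response to gibberellin and cytokinin. The order differed by library. Phvul.003G003300 was above it in nts replicate 1 (81.3 FPKM), and TCP20 was in nts replicate 3 (57.5 FPKM). In A18 replicate 2 Phvul.010G089100 (21.7 FPKM) also lay above it. Phvul.002G086600 had 76.7, 59.6 and 38.0 FPKM in nts, against 38.2, 18.8 and 40.2 FPKM in A18. Replicates 1 and 2 of nts were above every A18 library, while nts replicate 3 was just below A18 replicates 1 and 3 (log2 change 0.94 ± 0.34, edgeR adjusted p = 0.224). The ratio of this gene to TCP20 within a library, which does not depend on library scaling, was 1.62, 1.73 and 0.661 in nts and 0.391, 0.289 and 0.406 in A18. The pair was chosen after its values were seen and neither gene was called, so the ratio is a description.

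TCP20 made up 11.1%, 12.1% and 22.0% of the summed TCP FPKM in nts, against 33.2%, 32.4% and 34.2% in A18. The sum itself was 429, 283 and 261 FPKM in nts and 294, 200.3 and 290 FPKM in A18, and the genotypes overlapped. A18 replicate 2 had the lowest sum of all, yet its TCP20 share was close to that of the other A18 libraries.

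**Figure D2:**
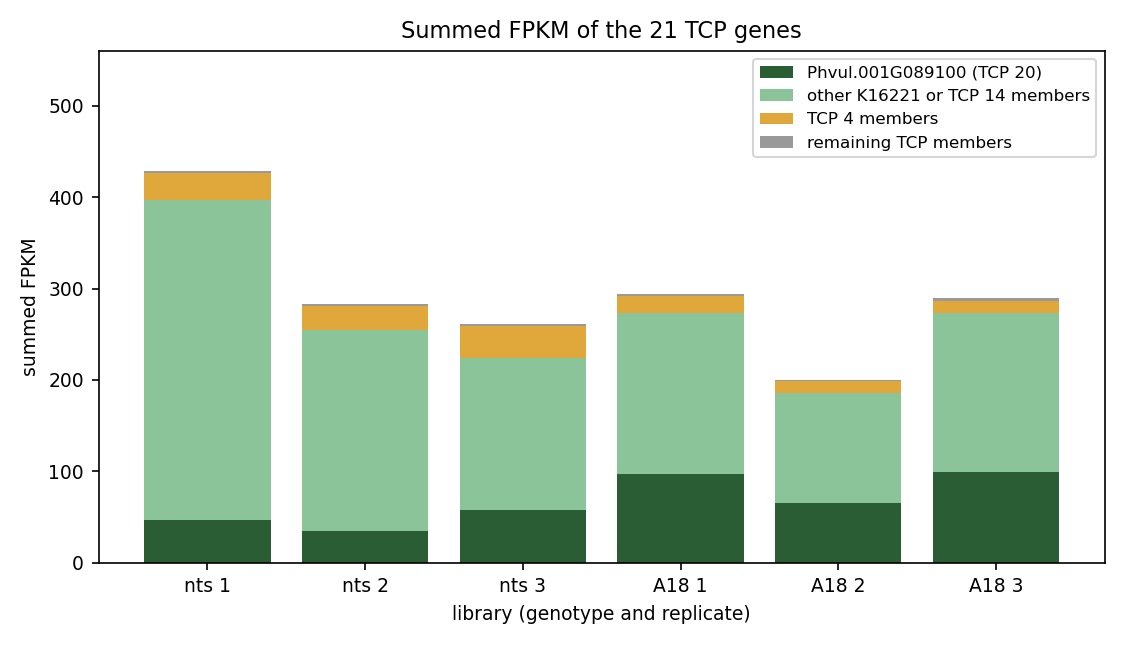
Bars give the summed FPKM of the 21 TCP genes (vertical axis) in each library (horizontal axis, genotype and replicate), split into TCP20, the other class I type members, the TCP4 members and the rest. TCP20 is the lowest block and is smaller in each nts library than in any A18 library, while the TCP4 block is larger in each nts library.

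Further class I type genes, Phvul.003G003300 and Phvul.007G015000, both assigned by the table to the KEGG circadian rhythm pathway like most members of their branch, were also higher in nts by the fitted value. Phvul.003G003300 (chromosome 3, 273510 to 274232) had 81.3, 19.9 and 20.7 FPKM in nts, against 10.9, 6.79 and 11.3 FPKM in A18. Every nts library exceeded every A18 library, and nts replicate 1 stood far above the other nts libraries. This was the member past the study's thresholds on the higher side (log2 change 2.17 ± 0.61, edgeR unadjusted p = 0.0105, adjusted p = 0.149), and the change was 1.19 without nts replicate 1. Phvul.007G015000 (chromosome 7, 1035360 to 1036118) had 46.6, 22.4 and 13.1 FPKM in nts, against 13.2, 4.76 and 9.16 FPKM in A18. The genotypes touched, since nts replicate 3 was just below A18 replicate 1, and nts replicate 1 was again the highest (log2 change 1.70 ± 0.54, edgeR adjusted p = 0.182; 1.09 without nts replicate 1).

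The TCP14 genes, whose Arabidopsis counterpart acts in internode growth and gibberellin responses, differed less between genotypes than between libraries. Phvul.009G188100 (chromosome 9) had 31.8, 34.9 and 18.4 FPKM in nts, against 32.9, 12.6 and 29.6 FPKM in A18. Phvul.003G190900 (chromosome 3) had 37.9, 36.7 and 9.55 FPKM in nts, against 23.7, 9.15 and 28.3 FPKM in A18. In each gene nts replicate 3 and A18 replicate 2 were the low libraries of their genotype, and the log2 changes were 0.28 ± 0.37 and 0.56 ± 0.58 (edgeR adjusted p = 0.736 and 0.663).

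None of the other tested class I type members had an unadjusted p under 0.05. Phvul.006G217800 averaged 20.4 ± 4.37 FPKM in nts and 21.2 ± 3.67 FPKM in A18 (SD, n = 3), and Phvul.010G089100 averaged 21.8 ± 3.80 FPKM in nts and 18.2 ± 3.08 FPKM in A18. Phvul.007G149700, with a GO term for circadian rhythm, averaged 3.21 ± 0.68 FPKM in nts and 5.43 ± 1.83 FPKM in A18 (log2 change -0.65 ± 0.40). Phvul.005G132500, which carries GO terms for DNA endoreduplication and gynoecium development, was highest in nts replicate 3 at 15.6 FPKM and in A18 replicate 2 at 14.5 FPKM, while the other nts libraries had 6.87 and 4.45 FPKM and the other A18 libraries 6.04 and 6.85 FPKM. It thus ran opposite to the TCP14 genes across libraries. Phvul.007G065900 averaged 7.88 ± 4.79 FPKM in nts and 5.63 ± 3.83 FPKM in A18. Phvul.003G213300 stayed under 2 FPKM in every library, and Phvul.011G082500 had 0 counts throughout.

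All 3 genes described as TCP family transcription factor 4 had a positive log2 change. The strongest was Phvul.005G097200 (chromosome 5, 30163529 to 30164653), with 16.7, 16.6 and 29.1 FPKM in nts, against 10.8, 9.36 and 6.15 FPKM in A18. Every nts library was above every A18 library, and nts replicate 3 was the highest (log2 change 1.32 ± 0.35, edgeR unadjusted p = 0.00837, adjusted p = 0.139). DESeq2 gave a log2 change of 1.31 with an adjusted p of 0.0151, and over all alternatives of this gene the change ran from 0.97 to 1.49 with adjusted p from 0.0151 to 0.370. Phvul.011G136115 (chromosome 11) had 3.42, 3.08 and 1.87 FPKM in nts, against 1.56, 0.410 and 2.23 FPKM in A18, with nts replicate 3 below A18 replicate 3 (log2 change 1.11 ± 0.63). Phvul.005G067950 (chromosome 5) had 9.10, 6.62 and 4.27 FPKM in nts, against 5.20, 3.77 and 5.19 FPKM in A18 (log2 change 0.58 ± 0.34). Neither was called (edgeR adjusted p = 0.412 and 0.420).

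Summed over these 3 genes the level was 29.2, 26.3 and 35.2 FPKM in nts, against 17.6, 13.5 and 13.6 FPKM in A18, a mean 2.03 times as high in nts. Phvul.005G097200 made up most of this sum in every library but A18 replicate 3. Without it the other TCP4 genes summed to 12.5, 9.70 and 6.14 FPKM in nts and to 6.76, 4.18 and 7.43 FPKM in A18, which overlap. The word rule missed 4 genes of the family that the table spells without "TCP", and these were looked at after the members' values were known. Among them TCP3 (Phvul.011G156900) had 7.17, 7.68 and 10.9 FPKM in nts, against 3.02, 3.22 and 4.42 FPKM in A18. Its genotypes did not overlap (log2 change 1.35 ± 0.30, edgeR unadjusted p = 0.00353, adjusted p = 0.104). TCP2 (Phvul.006G166600) averaged 15.4 ± 1.75 FPKM in nts and 12.6 ± 1.80 FPKM in A18 (log2 change 0.37 ± 0.21), and the 2 TCP5 genes stayed at or under 0.500 FPKM.

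The members with branching or flower symmetry terms were scarce in these stem tips. Of the 3 genes with GO terms for flower symmetry, Phvul.004G072100 and Phvul.007G060100 had 0 counts in all 6 libraries, and Phvul.008G020400 averaged 1.66 ± 0.29 FPKM in nts and 1.85 ± 0.77 FPKM in A18. The 2 genes with the GO term for secondary shoot formation, the role of BRANCHED1 in Arabidopsis, were both low. Phvul.009G200600 had 1.02, 0.718 and 0.154 FPKM in nts, against 0.377, 0.499 and 0.273 FPKM in A18. Phvul.003G177300 had 0.0908, 0.0579 and 0.317 FPKM in nts, against 0.530, 0.0687 and 0.219 FPKM in A18. The genotypes overlapped in both (log2 change 0.75 ± 0.84 and -0.65 ± 1.05), and a difference of branching genes was not detectable at this level.

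**Figure D3:**
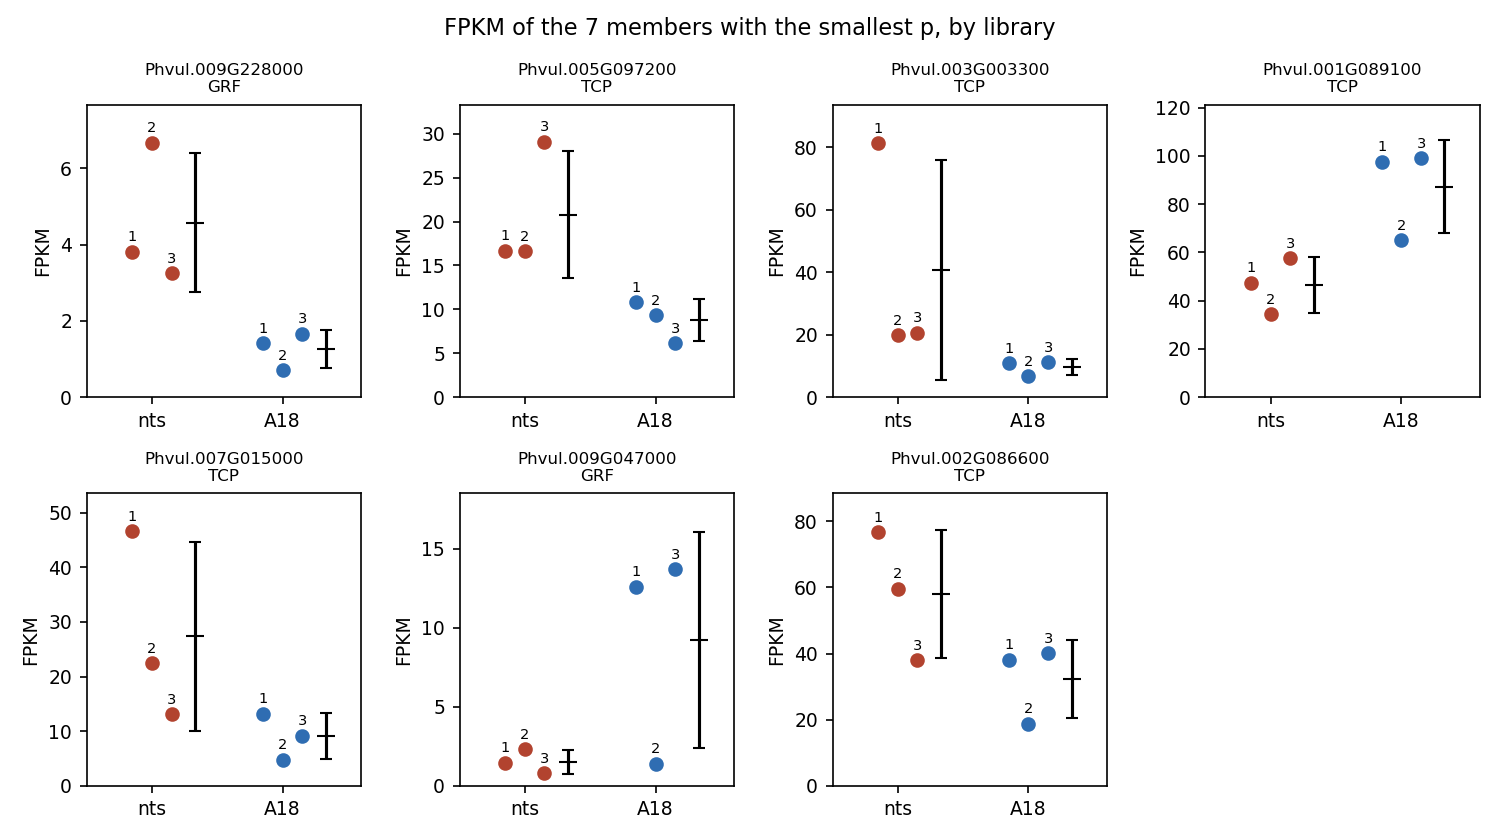
Each panel shows the FPKM (vertical axis from 0) of a member with an unadjusted p under 0.05, with points for the numbered libraries of nts (left) and A18 (right) and mean ± SD beside them. Genotypes are apart in 4 panels, and in the panel of Phvul.009G047000 the point of A18 replicate 2 lies among the nts points.

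Among the GRF genes the highest by mean level was GRF1 (Phvul.001G031000, chromosome 1, 2747789 to 2751704), with 7.87, 16.5 and 3.15 FPKM in nts, against 8.95, 4.77 and 14.4 FPKM in A18. GRF2 (Phvul.002G131700, chromosome 2) had 6.34, 8.26 and 4.41 FPKM in nts, against 7.75, 3.89 and 6.77 FPKM in A18. For both the spread between libraries covered the genotype difference (log2 change 0.06 ± 0.62 and 0.14 ± 0.34, edgeR adjusted p = 0.978 and 0.871), and the sign of the change turned under some alternatives. In Arabidopsis these genes promote leaf and cotyledon growth.

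The second GRF gene by mean level in A18, though not in nts, was Phvul.009G047000 (chromosome 9, 9196289 to 9198908), described as growth-regulating factor 7 for some transcripts and 2 for others. GRF7 represses osmotic stress genes in Arabidopsis. It had 1.44, 2.31 and 0.775 FPKM in nts, against 12.6, 1.38 and 13.7 FPKM in A18. A18 replicates 1 and 3 were far above every nts library, whereas A18 replicate 2 lay within the nts range. It was the member past the study's thresholds on the lower side (log2 change -2.48 ± 0.82, edgeR unadjusted p = 0.0210, adjusted p = 0.191). Without A18 replicate 2, the A18 library that ran against the difference, it was called (log2 change -2.95, edgeR adjusted p = 0.0399), a result that this choice favours. Its adjusted p ran from 0.00926 to 0.470 over all alternatives.

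The genes described as GRF5, which in Arabidopsis raises leaf cell number, pointed in opposite directions. Phvul.009G228000 (chromosome 9, 34286947 to 34289072) had 3.81, 6.67 and 3.26 FPKM in nts, against 1.41, 0.714 and 1.66 FPKM in A18. All nts libraries exceeded all A18 libraries, and its unadjusted p was the smallest of the members (log2 change 1.94 ± 0.44, edgeR unadjusted p = 0.00375, adjusted p = 0.105). DESeq2 called it (log2 change 1.93, adjusted p = 0.00102), but over all alternatives of this gene the adjusted p reached 0.291, and 3 of them called it. Phvul.011G017700 (chromosome 11, 1404303 to 1407531) had 0.798, 1.78 and 0.0697 FPKM in nts, against 6.29, 0.416 and 7.34 FPKM in A18. As with Phvul.009G047000, A18 replicates 1 and 3 were high and A18 replicate 2 was not (log2 change -2.28 ± 1.26, edgeR adjusted p = 0.397; -2.78 without A18 replicate 2).

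The ratio of Phvul.009G228000 to Phvul.011G017700 within a library was 4.78, 3.74 and 46.8 in nts, against 0.225, 1.72 and 0.226 in A18. The pair was chosen after its values were seen, so the separation of these ratios is a description. Phvul.011G017700 had just 4 counts in nts replicate 3 and 20 in A18 replicate 2, so the ratios of these libraries are imprecise. Phvul.002G041800, described as both GRF2 and GRF5, had 6.94, 4.11 and 0.259 FPKM in nts, against 0.486, 0 and 1.41 FPKM in A18. The high values were those of nts replicates 1 and 2 (log2 change 2.68 ± 1.58, edgeR adjusted p = 0.428). The other GRF5 genes were low, with at most 0.770 FPKM for Phvul.010G130000 and at most 0.450 FPKM for Phvul.003G131800, the GRF gene that had too few counts to be tested.

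Of the remaining GRF genes, GRF4 (Phvul.001G187500) had 2.26, 2.35 and 0.635 FPKM in nts, against 1.26, 0 and 0.533 FPKM in A18. GRF3 (Phvul.007G222300) averaged 1.71 ± 0.71 FPKM in nts and 2.02 ± 0.44 FPKM in A18. Phvul.010G048400, described as GRF9 and GRF2, had 0.457, 1.12 and 0 FPKM in nts, against 1.36, 1.42 and 1.56 FPKM in A18. Its libraries did not overlap between genotypes, but with 0 counts in nts replicate 3 the fitted change was imprecise (log2 change -1.41 ± 1.31, edgeR adjusted p = 0.624).

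Across libraries the GRF genes moved together within each genotype. Of the 10 tested, 9 had their lowest nts value in nts replicate 3 and 9 their lowest A18 value in A18 replicate 2, beside 42.1% and 53.1% of all tested genes. For 8 of 10 both held at once, beside 24.7% of all tested genes and 24 of 70 cyclin and cyclin-dependent kinase genes. Of the 18 tested TCP genes both held for 6. The summed GRF level was 32.3, 45.5 and 15.1 FPKM in nts and 42.8, 14.2 and 50.3 FPKM in A18. Its mean was 31.0 ± 15.3 FPKM in nts and 35.8 ± 19.1 FPKM in A18 (SD, n = 3), a difference smaller than the spread between libraries. These libraries were also the shallowest of their genotype, and the part of depth or of sampled tissue in this pattern was not tested.

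**Figure D4:**
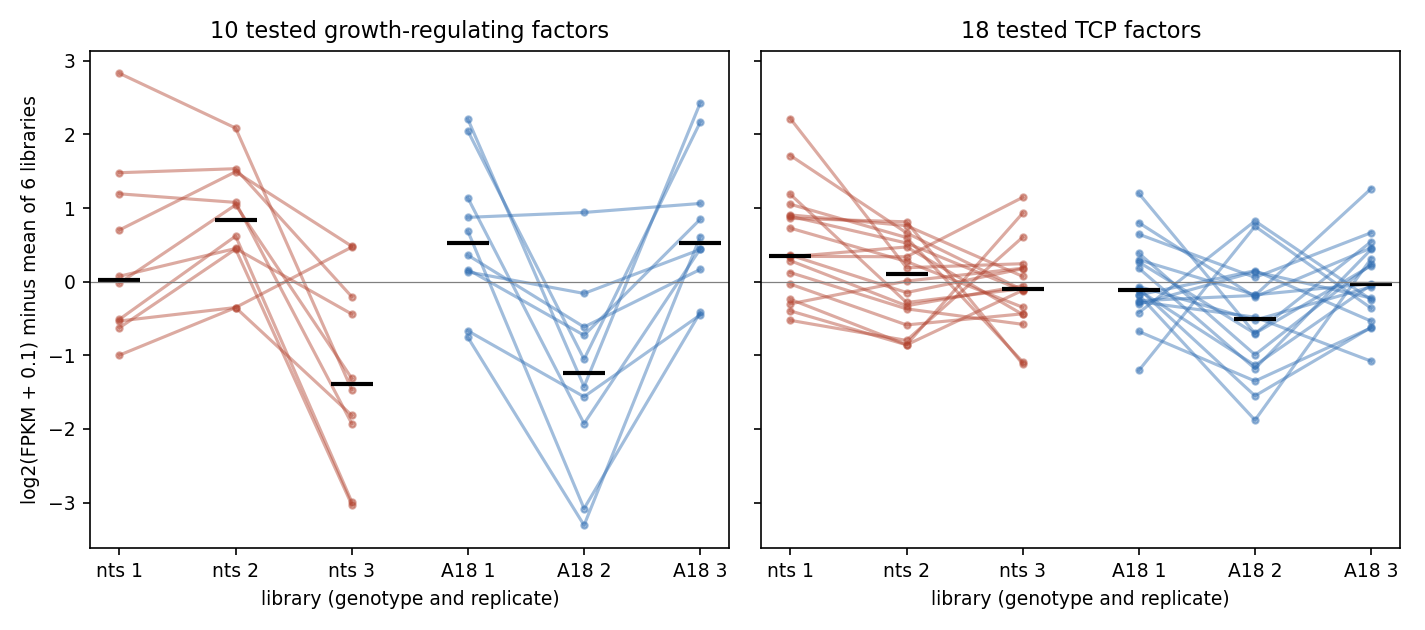
Each line is a tested gene, with its log2(FPKM + 0.1) in a library minus its mean over the 6 libraries (vertical axis), for GRF genes (left) and TCP genes (right). Libraries are on the horizontal axis, nts before A18, and lines join the values of a gene without implying an order of replicates. Black marks are medians, and those of the GRF genes are lowest in nts replicate 3 and A18 replicate 2.

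Among the GIF co-activators, GIF3 (Phvul.010G118100, chromosome 10, 39731648 to 39734975) was the most abundant of all 35 members, with 90.9, 96.6 and 91.2 FPKM in nts, against 109, 91.6 and 108 FPKM in A18. Its libraries stayed within a narrow range, including nts replicate 3 and A18 replicate 2 where GRF levels were low (log2 change -0.07 ± 0.15, edgeR adjusted p = 0.849, from -0.14 to -0.03 over all alternatives). It made up between 97.5% and 98.9% of the summed GIF FPKM in nts and between 98.5% and 99.6% in A18. The second GIF3 gene, Phvul.009G050300, had 0.988, 2.47 and 1.76 FPKM in nts, against 0.388, 1.35 and 0.754 FPKM in A18 (log2 change 1.08 ± 0.72, edgeR adjusted p = 0.489). GIF2 (Phvul.008G253900) had 0 counts in all libraries. The summed FPKM of GIF genes was thus well above that of GRF genes in every library.

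Gene lists drawn by description words for the surroundings of these factors held no gene called by edgeR, where 0.0947% of all tested genes were called. Among 30 tested chromatin remodelling genes, of the kind GIF proteins recruit, the median log2 change was 0.06. At an unadjusted p under 0.05, 0 were higher and 1 was lower in nts (3.33% lower). Of all tested genes 8.39% were higher and 9.58% lower. The lower gene was chromatin remodeling 8 (Phvul.007G191600), at 3.14 ± 0.34 FPKM in nts and 4.77 ± 1.01 FPKM in A18. The gene next by p, a SWIB/MDM2 domain protein (Phvul.004G038900), averaged 36.9 ± 6.08 FPKM in nts and 27.8 ± 5.27 FPKM in A18. Among 70 tested cyclin and cyclin-dependent kinase genes, 9 had an unadjusted p under 0.05, all higher in nts (12.9%, against 8.39% of all tested genes; 0 lower, against 9.58%), and the median was 0.23. A cyclin p4;1 gene (Phvul.008G049600) had 24.2, 17.2 and 46.9 FPKM in nts, against 6.83, 9.84 and 4.97 FPKM in A18 (log2 change 2.09 ± 0.50, edgeR adjusted p = 0.114). A mitotic-like cyclin 3B gene (Phvul.001G055400) averaged 36.7 ± 3.37 FPKM in nts and 16.3 ± 5.64 FPKM in A18 (log2 change 1.23 ± 0.32, edgeR adjusted p = 0.134).

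Cyclin-dependent kinase inhibitors slow the cell cycle. The 3 genes summed to 74.5, 96.7 and 94.5 FPKM in nts, against 33.6, 34.4 and 16.7 FPKM in A18, and Phvul.003G244700 averaged 60.0 ± 11.9 FPKM in nts and 16.4 ± 6.87 FPKM in A18 (log2 change 1.96 ± 0.32, edgeR adjusted p = 0.0663). The inhibitor next by p, Phvul.003G295400, averaged 23.3 ± 8.83 FPKM in nts and 9.77 ± 6.99 FPKM in A18. Lipoxygenases include LOX2, a direct TCP4 target in Arabidopsis on the way to jasmonate. Of 23 tested, 4 were higher and 3 lower at an unadjusted p under 0.05 (17.4% and 13.0%, against 8.39% and 9.58% of all tested genes). The 32 listed genes summed to 859, 838 and 299 FPKM in nts, against 729, 351 and 427 FPKM in A18, and the genotypes overlapped. The 2 of smallest p, named next, were both higher in nts. A PLAT/LH2 lipoxygenase (Phvul.002G175500) had 27.3, 27.5 and 10.97 FPKM in nts, against 3.26, 3.70 and 2.54 FPKM in A18 (log2 change 2.85 ± 0.41, edgeR adjusted p = 0.0568). A further PLAT/LH2 lipoxygenase (Phvul.007G055600) averaged 57.8 ± 15.5 FPKM in nts and 14.3 ± 5.51 FPKM in A18 (log2 change 2.09 ± 0.36, edgeR adjusted p = 0.0717). Of 11 tested NAC (No Apical Meristem) domain genes, a family that holds organ boundary factors, 0 had an unadjusted p under 0.05 and the median was -0.50. The NAC genes of smallest p were Phvul.005G084500 and Phvul.009G152800, both highest in A18 replicate 2. Phvul.005G084500 had 8.63, 9.17 and 11.1 FPKM in nts, against 8.45, 64.3 and 15.1 FPKM in A18. Phvul.009G152800 had 3.64, 2.22 and 2.96 FPKM in nts, against 3.13, 12.6 and 5.45 FPKM in A18. The genotypes overlapped in both.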

How the data were processed

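RNA of 6 apical stem samples was sequenced. Per the submitters' processing notes, cutadapt 1.9 and FastQC were used on the reads. The aligner, counter, strand setting, genome build and annotation are not stated there or in the labels, and coordinates are as the table lists them. Raw counts per gene were deposited, per the file headers. Low counts pile up on multiples of 4 (29.8% to 33.0% of counts from 1 to 39, where 23.1% of whole numbers are), so a count need not be 1 fragment. The authors' FPKM values come from the same table, and genes with 0 counts are listed at 0.0001, set to 0 here. The counts of all genes were tested with edgeR 4.0.16 (TMM, filterByExpr, robust quasi-likelihood F test, Benjamini-Hochberg over 21126 genes) in R 4.3.3, with no term besides genotype. SE is the log2 change divided by the root of F. The common biological coefficient of variation was 0.487, and the parts of replicate spread and of counting error in it were not tested. No gene model in the table overlaps a member, but how reads shared by close copies were counted is not stated. Alternatives used DESeq2 1.42.0, limma 3.58.1, other scaling, no filter, a replicate block and left-out libraries.

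Per-sample FPKM are given by a rule: members with an unadjusted p under 0.05 or past the study's thresholds, the most abundant TCP and GRF members, all GIF genes, and 2 genes of smallest p per list. Others shown by library were picked with their values in view. The members, lists and tests were chosen with earlier results of these data known. Subgroups of TCP genes follow the table's descriptions, KEGG and GO terms. Protein and promoter sequences were not used here.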

Additional observations from a re-analysis of the deposited data

How the results depend on the processing

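The edgeR count of 0 called members became 5 with DESeq2, 6 with voom and quality weights and 5 without A18 replicate 2 and nts replicate 3 together, and ran from 0 to 1 when a library was left out. Members past the study's thresholds numbered 0 on log2(FPKM + 1) and on log2(FPKM + 0.1) in limma, 5 without the pair of libraries, and 1 to 4 when a library was left out, against 2. These counts are over the members tested in each setting, 30 or 31, and those without the pair and without nts replicate 3 include Phvul.003G131800, which the filter kept out of the 30. Of all tested genes, 1147 passed the study's thresholds in the main fit and 2477 without the pair. The number was 765 on log2(FPKM + 1), 1326 on log2(FPKM + 0.1) and 1013 to 1768 when a library was left out. Members with an unadjusted p under 0.05 numbered 11 with quality weights, 11 without the pair, and 4 to 8 when a library was left out, against 7. The share of all tested genes at this unadjusted p is not given for these alternatives, so no gain of the members over other genes can be read from them. With quality weights and without the pair, more of all tested genes were also called after adjustment, as given below. Listed surrounding genes called numbered 11 with DESeq2, 23 with quality weights and 21 without the pair, against 0 in the main fit. In those fits 11.3%, 24.1% and 19.9% of all tested genes were called. Listed genes called numbered 1 on log2(FPKM + 0.1) and 3 on log2(FPKM + 1), beside 1.68% and 1.95% of all tested genes. With a library left out they numbered 0 to 5, beside 0% to 4.45% of all tested genes. The lists held 30, 70, 23, 11 and 3 genes tested in the main fit. With a replicate block 0 members and 0 of all tested genes were called. In that fit 0 members passed the study's thresholds, while 1149 of all tested genes did. Same-numbered samples showed no sign of deviating together (correlations -0.02, -0.13 and 0.04 for numbers 1, 2 and 3). Pairs of different numbers ran from -0.15 to 0.11. With 3 libraries per genotype this cannot exclude that the numbers pair the samples. The cause of these shifts was not tested.

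Of 420 alternative log2 changes of the 30 tested members, 28 turned sign, all in 9 members with adjusted p of 0.73 or more. GRF1 (Phvul.001G031000) gave -0.19 and -0.15 on log2(FPKM + 0.1) and log2(FPKM + 1), -0.10 with the replicate block, -0.15 with quality weights and -0.62 to 0.48 when a library was left out. Phvul.005G132500 gave -0.11 and -0.089 on the FPKM scales, -0.078 without the pair and -0.66 to 0.65 when a library was left out. Phvul.006G217800 gave -0.063 and -0.060 on the FPKM scales, -0.023 without the pair and -0.12 to 0.21 when a library was left out. Other ranges over left-out libraries were -0.052 to 0.33 for Phvul.002G131700, -1.62 to 0.18 for Phvul.003G177300, -0.10 to 1.35 for Phvul.007G065900, -0.55 to 0.074 for Phvul.007G222300, -0.28 to 0.20 for Phvul.008G020400 and -0.043 to 1.33 for Phvul.010G130000.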
